A study of Mus musculus with 6 samples.

Results

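The response of wild-type (WT) mouse neural stem cells to the loss of their mitogens was read from the WT channels of arrays with 2 colours. These channels were chosen by the genotype, dye and culture condition in the labels, and they are 6 of the 12 channels in the series. The other 6 hold RNA of Dnmt3a-null (KO) cells, with 1 WT and 1 KO channel on each array. Cells from the subventricular zone of mice aged postnatal day 14 to 21 were grown as adherent colonies on polyornithine and fibronectin, in a B27 medium free of serum with FGF-2 and EGF at 10 ng/ml each. The labels put the share of Nestin- and Sox2-positive cells after serial passage above 95%, and give neither a strain nor the driver of the deletion in the KO cells. The 4 proliferating WT samples were taken after 2 to 3 passages in these mitogens, with WT RNA in Cy3 on replicates 1 and 3 and in Cy5 on replicates 2 and 4. The 2 differentiated WT samples were replated with mitogen for 2 days and then held without it for 3 days, with WT RNA in Cy5 on replicate 1 and in Cy3 on replicate 2. The labels call the arrays biological replicates without naming cultures or animals, so p-values measure only a spread between channels that may be technical. That spread was estimated from all 12 channels, KO cells included, so it is not the scatter of the WT samples alone. All 4 proliferating arrays lie on 1 slide that was scanned in 1 session, and both differentiated arrays lie on another slide scanned in another, so slide, scan and culture condition cannot be told apart for any value below.

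FGF-2 and EGF act through receptor tyrosine kinases and the Ras and ERK kinases to keep these cells in cycle. Cyclins of the D type carry that signal to the retinoblastoma protein, whose phosphorylation frees E2F factors to turn on the genes of DNA replication, and genes of mitosis follow under the MuvB, B-Myb and FoxM1 proteins. Cells of the postnatal subventricular zone that leave the cycle in culture can become neurons, many of them GABAergic, or astrocytes and oligodendrocytes.

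Between 52% and 58.1% of gene probes were well above background in a WT channel, and Pearson correlations of normalized log2 signals ran from 0.951 to 0.988 among the proliferating and were 0.982 between the differentiated channels. Proliferating replicate 4 stood apart: its correlations with the other 3 were 0.951 to 0.956, and its array weight in a fit of the WT channels was 0.34, against 0.97 to 1.76 for the other 5. The WT samples also differ in sex-linked RNA. Xist, which is transcribed from the inactive X chromosome, read 6.0, 6.08, 12.68 and 13.33 (normalized log2 signal) in proliferating replicates 1 to 4 and 5.95 and 5.92 in differentiated replicates 1 and 2, while the Y-linked Ddx3y read 9.27, 9.16, 6.05 and 5.89 in proliferating and 9.11 and 9.51 in differentiated channels. Proliferating replicates 3 and 4 thus carried Xist signal, and the other 4 WT channels carried Ddx3y signal. Markers of cells that the dissection could have brought along were dark in part, the word used here for not well above background: 11 of 15 microglial and macrophage markers, Aif1, Csf1r and Cx3cr1 among them, and 8 of 16 endothelial and mural markers, Cldn5, Cdh5 and Rgs5 among them, were not well above background in enough WT channels to be tested. The same held for 4 of 12 fibroblast and meningeal, 3 of 12 ependymal and 4 of 7 choroid plexus markers on the array. Other markers were bright in every WT channel. The ependymal Foxj1 read 10.32, 9.62, 9.94 and 11.72 in proliferating and 9.4 and 9.79 in differentiated channels. The fibroblast marker Fbln1 read 9.96, 11.01, 9.28 and 9.44, then 8.06 and 8.63. Of the markers tested, 1 of 4 microglial, 2 of 8 endothelial and mural, 0 of 8 fibroblast and meningeal, 1 of 9 ependymal and 1 of 3 choroid plexus markers were called higher in differentiated cells and none lower. These were C1qb, Pdgfrb, Esam, Mia and Folr1, with log2 changes of 0.69, 4.12, 0.61, 1.44 and 0.82. Over all genes tested 9.38% were called higher and 5.93% lower. The mean of the ependymal list was 7.7, 7.67, 7.76 and 8.61 in proliferating replicates 1 to 4 and 8.14 and 7.97 in the differentiated ones. Dnmt3a, the deleted gene, was higher in the WT than in the KO channel of all 6 arrays at each of its 3 probes, by 0.37 to 1.94 on the log2 scale; the labels do not place the deletion relative to the probes.

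Of 17429 genes tested, 1635 (9.38%) were higher and 1034 (5.93%) lower in differentiated than in proliferating WT cells at a Benjamini-Hochberg adjusted p under 0.05. A log2 change is always the differentiated minus the proliferating group, given with the standard error (SE) of the limma fit, and its median over all genes tested was 0.06. The falls reached further than the rises: 81 of the called genes fell and 35 rose at least 8-fold. Both differentiated channels lay above all 4 proliferating channels for 1628 of the genes called higher, and below all 4 for 1026 of those called lower, while over all genes tested they lay above for 4216 and below for 3045. With every channel centred on its median in place of the quantile scaling, the median log2 change was -0.202, and 878 genes were called higher and 2639 lower (25.0% of calls higher, against 61.3%); changes are read against this shift. The number of calls depended on single arrays. It was 202 without differentiated replicate 1, 870 without differentiated replicate 2, 693, 719 and 1003 without proliferating replicates 1, 2 and 3, and 3801 without proliferating replicate 4. Without proliferating replicates 3 and 4 together, the pair with Xist signal, 1007 genes were called. In each of these sets the genes shared with the calls on all arrays had the same direction. This says little, since only genes called in both fits were compared and the fits share most arrays. Of 177 called genes singled out for description, 134 were no longer called without differentiated replicate 1, 93 without differentiated replicate 2, 87, 87 and 74 without proliferating replicates 1, 2 and 3, and 7 without proliferating replicate 4, and all 177 kept their direction. A kept direction again says little, since where groups do not overlap, leaving out an array cannot turn the sign of a difference of group means. The number of arrays limits the precision, and in a mixed culture fewer cells of a type and less RNA per cell cannot be told apart.

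**Figure D1:**
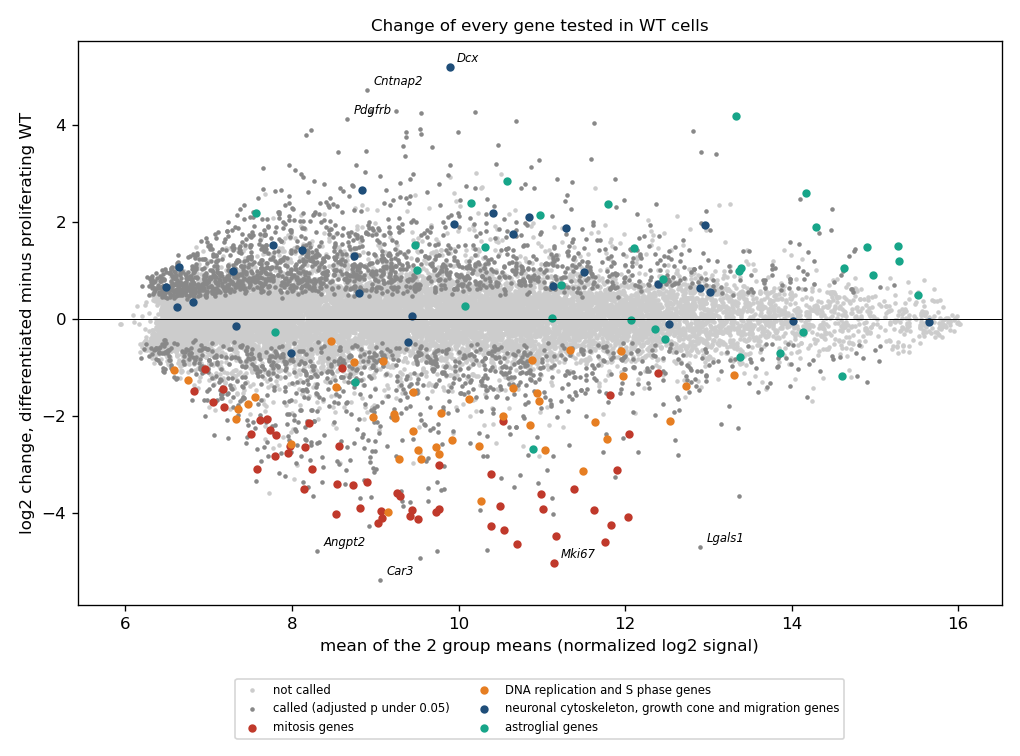
Log2 change (differentiated minus proliferating WT, vertical axis) against the mean of both groups' normalized log2 signals (horizontal axis) for each of the 17429 genes tested, with called genes in dark grey and 4 gene lists in colour. All 55 mitosis genes and all 43 replication genes lie below 0, and Dcx and Cntnap2 lie highest among the labelled genes.

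Genes of mitosis were among the deepest falls. All 55 mitosis genes tested had lower means in differentiated cells, 53 of them were called lower, and their median log2 change was -3.41, against 0.06 over all genes and 5.93% of all genes called lower. Mki67, which coats mitotic chromosomes and marks cycling cells, read 14.23, 14.12, 13.89 and 12.39 (normalized log2 signal) in proliferating replicates 1 to 4 and 8.84 and 8.42 in differentiated replicates 1 and 2. The groups were far apart, and proliferating replicate 4 was the lowest of its group. The log2 change was -5.02 ± 0.44 (adjusted p = 0.000504), a 32.5-fold fall. The probe lies at chr7:132094802-132094861 of build mm7, and a second Mki67 probe gave -4.57.

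Cyclins and kinases that drive entry into mitosis fell about as far. Ccnb1 (cyclin B1) read 11.23, 11.37, 11.53 and 10.41 in the proliferating and 7.06 and 6.8 in the differentiated channels, a log2 change of -4.21 ± 0.33 (adjusted p = 0.000504). Ccna2 (cyclin A2) fell by 4.26, Cdk1, the kinase that both cyclins activate, by 3.95, and Plk1, a kinase that matures centrosomes, by 3.86 on the log2 scale. Cdc20, the activator of the anaphase-promoting complex, went from 14.25, 14.59, 14.14 and 12.85 to 9.92 and 9.5, a change of -4.24 ± 0.44 (adjusted p = 0.000797). In each of these genes the highest differentiated channel lay below the lowest proliferating one.

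Parts of the spindle and of the midbody shared this fall. Cenpe, the kinetochore motor, changed by -4.47 ± 0.44 (adjusted p = 0.000628) at the brightest of its 3 probes, while the others gave -1.99 and -0.67. Cdca8, a subunit of the chromosomal passenger complex, changed by -4.6 ± 0.4, Kif20a and Prc1, which act at the central spindle, by -4.63 ± 0.46 and -4.35 ± 0.47, and Tpx2, which activates Aurora A on spindle microtubules, by -4.12 ± 0.36. Top2a, the topoisomerase that untangles sister chromatids, fell by 3.41, with a second probe at -1.03. The 2 genes not called were Pttg1 (securin), at -1.12 (adjusted p = 0.124), and Mybl2 (B-Myb), at -1.0 (adjusted p = 0.229). Their signals still had lower means after withdrawal: Pttg1 read 13.32, 13.69, 12.13 and 12.66 in the proliferating and 11.8 and 11.87 in the differentiated channels, with no overlap, whereas for Mybl2 the groups overlapped.

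The mean of the mitosis list was 11.39, 11.43, 11.21 and 9.80 (normalized log2 signal) in proliferating replicates 1 to 4 and 7.82 and 7.78 in differentiated replicates 1 and 2. Proliferating replicate 4 was the lowest of its group for 54 of the 55 genes, yet lay above both differentiated channels for 54 of them. Its part in the results was not tested beyond leaving it out, which left 54 genes called. The count was 19 without differentiated replicate 1, 33 without differentiated replicate 2, and 43, 47 and 48 without proliferating replicates 1, 2 and 3.

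**Figure D2:**
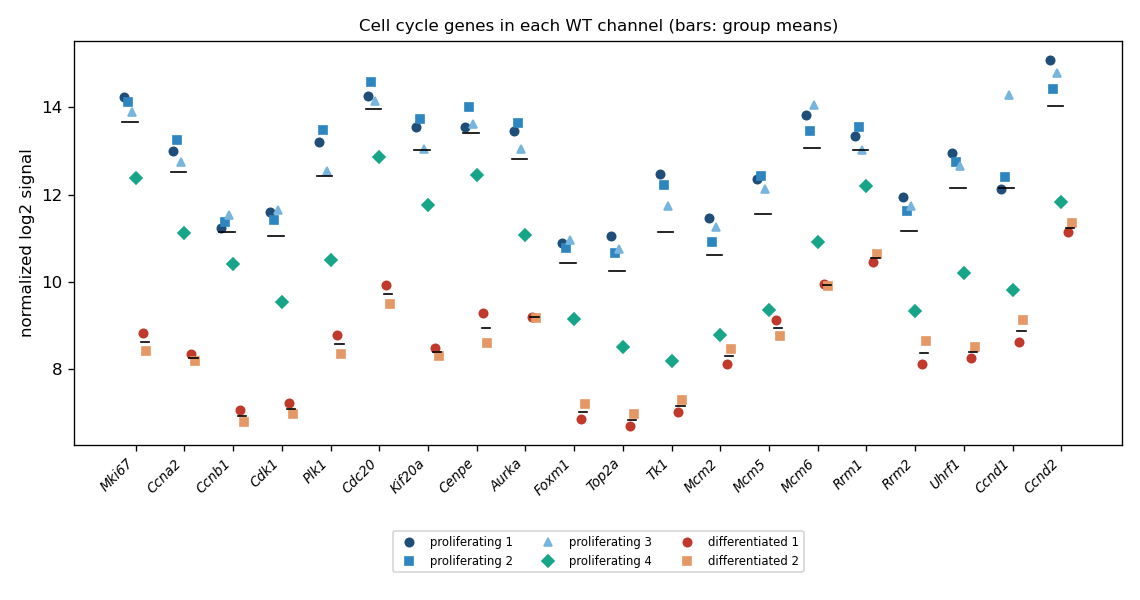
Normalized log2 signal (vertical axis) of 20 cell cycle genes in each of the 6 WT channels, with bars at the group means. For Mki67 the proliferating channels run from 12.39 to 14.23 and the differentiated ones from 8.42 to 8.84; proliferating replicate 4 is the lowest proliferating channel of most genes shown.

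Promoters of the mitosis and replication genes are shown because members of both lists moved together. The sequences are the 200 bases before the annotated start, 5′ to 3′ on the strand of the gene, from RefSeq on build GRCm38.p6. The motifs searched, on both strands, were the CCAAT box (CCAAT, the NF-Y site), the core of the cell cycle homology region (TTTGAA, bound by the MuvB complex), an E2F site (TTTNNCGC, each N being C or G) and an E box (CAGCTG, read by neurogenic factors). Promoters on the chromosome of Kif20a were left out before those shown were chosen, so Kif20a (log2 change -4.63) was not considered. In the first set CCAAT and TTTGAA matches are in capitals. Of the mitosis genes called on the chromosomes kept, these are the 4 with the largest falls whose promoter holds both matches:
Mki67 (chr7:135716380-135716579, minus strand): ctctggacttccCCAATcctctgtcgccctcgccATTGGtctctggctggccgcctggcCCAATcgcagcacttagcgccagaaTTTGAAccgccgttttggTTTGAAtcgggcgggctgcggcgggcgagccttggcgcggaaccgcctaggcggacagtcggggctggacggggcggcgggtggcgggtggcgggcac
Prc1 (chr7:80294276-80294475, plus strand): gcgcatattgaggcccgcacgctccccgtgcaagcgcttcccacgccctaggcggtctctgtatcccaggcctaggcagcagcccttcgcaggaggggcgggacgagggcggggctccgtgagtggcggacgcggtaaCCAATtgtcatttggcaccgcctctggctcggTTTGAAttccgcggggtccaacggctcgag
Cdc20 (chr4:118437344-118437543, minus strand): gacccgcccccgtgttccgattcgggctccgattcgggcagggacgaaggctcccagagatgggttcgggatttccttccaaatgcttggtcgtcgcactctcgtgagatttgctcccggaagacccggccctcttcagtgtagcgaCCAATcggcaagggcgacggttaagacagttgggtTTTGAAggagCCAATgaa
Ect2 (chr3:27153879-27154078, minus strand): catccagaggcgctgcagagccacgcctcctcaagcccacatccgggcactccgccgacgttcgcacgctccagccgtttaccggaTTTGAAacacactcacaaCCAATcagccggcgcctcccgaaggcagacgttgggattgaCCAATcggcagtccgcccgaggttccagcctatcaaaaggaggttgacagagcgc
The Mki67 promoter holds 3 CCAAT and 2 TTTGAA matches, and that of Ect2, an exchange factor for RhoA in cytokinesis whose log2 change was -4.1 (-1.05 at a second probe), holds 2 and 1. In the second set E2F and CCAAT matches are in capitals. Of the replication genes called on the chromosomes kept, these are the 3 with the largest falls whose promoter holds an E2F match:
Uhrf1 (chr17:56304113-56304312, plus strand): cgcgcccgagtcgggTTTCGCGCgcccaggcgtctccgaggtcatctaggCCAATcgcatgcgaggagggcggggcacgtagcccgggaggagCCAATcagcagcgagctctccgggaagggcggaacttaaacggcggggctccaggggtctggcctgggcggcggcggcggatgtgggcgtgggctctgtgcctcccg
Mcm6 (chr1:128359706-128359905, minus strand): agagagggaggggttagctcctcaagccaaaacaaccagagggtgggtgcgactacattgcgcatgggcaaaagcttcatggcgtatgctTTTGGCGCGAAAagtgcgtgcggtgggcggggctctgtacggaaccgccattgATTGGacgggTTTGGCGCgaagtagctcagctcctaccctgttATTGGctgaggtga
Mcm5 (chr8:75109309-75109508, plus strand): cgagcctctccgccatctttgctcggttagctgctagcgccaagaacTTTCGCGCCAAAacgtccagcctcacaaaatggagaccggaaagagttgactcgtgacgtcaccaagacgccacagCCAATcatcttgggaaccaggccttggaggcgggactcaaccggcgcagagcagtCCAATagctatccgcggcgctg
In the Mcm6 and Mcm5 promoters matches on opposite strands overlap. Promoters were found for 43 of the 55 mitosis genes (45 promoters) and 36 of the 43 replication genes (44 promoters). A CCAAT match stood in 71.1% of the mitosis and 59.1% of the replication promoters, against 29.3% of all 32851 promoters in the table and 31.6% of those of genes tested. TTTGAA stood in 35.6% and 13.6%, against 12.5% and 7.86%, and an E2F match in 8.89% and 22.7%, against 1.58% and 2.51%. Over all genes called lower the shares were 38.6%, 11% and 3.89%, and over all called higher 28.7%, 6.53% and 1.88%. The E box stood in 8.89% of the mitosis and 2.27% of the replication promoters, against 10.9% of all promoters, 10.1% of those of genes tested, 8.25% of those called lower and 14.2% of those called higher. In the neuronal cytoskeleton list, described below, 16 of 29 genes had promoters in the table (33 promoters), of which 48.5% held CCAAT, none TTTGAA, 3.03% an E2F match and 21.2% an E box, so a CCAAT share above that of genes tested was not limited to the falling lists. These are matches of letters and not measured binding.

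Genes of DNA replication and S phase fell less far, and in fewer calls. All 43 had lower means in differentiated cells, 24 (55.8%) were called lower, against 5.93% of all genes tested, and the median log2 change was -1.95. Uhrf1, which guides maintenance DNA methylation to newly copied DNA, read 12.96, 12.75, 12.65 and 10.21 in the proliferating and 8.26 and 8.51 in the differentiated channels, with no overlap. Its log2 change was -3.76 ± 0.63 (adjusted p = 0.00596). Rrm1, the large subunit of ribonucleotide reductase, changed by -2.48 ± 0.32 (adjusted p = 0.00205), and E2f2, a factor that turns on this group of genes, by -2.89 ± 0.41 (adjusted p = 0.00276).

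For the helicase subunits Mcm6 and Mcm5 the proliferating channels lay far apart. Mcm6 read 13.81, 13.45, 14.05 and 10.92 in the proliferating and 9.95 and 9.91 in the differentiated channels, and Mcm5 read 12.36, 12.42, 12.12 and 9.35 in proliferating and 9.12 and 8.76 in differentiated channels. For both, proliferating replicate 4 lay nearer to the differentiated channels than to the other 3 of its group. The log2 changes were -3.13 ± 0.71 (adjusted p = 0.0193) and -2.62 ± 0.76 (adjusted p = 0.0458). Cdt1, which loads the helicase, read 11.87, 11.99, 12.26 and 8.52 in proliferating and 8.46 and 8.9 in differentiated channels, and its change of -2.48 ± 0.82 was not called (adjusted p = 0.0683). Gins4, another part of the replicative helicase, was even across replicates and changed by -0.85 ± 0.13 (adjusted p = 0.00444). Proliferating replicate 4 was the lowest of its group for 42 of the 43 genes, and the list mean was 11.38, 11.26, 11.32 and 9.37 in the proliferating and 8.89 and 8.91 in the differentiated channels. Without it 40 genes were called lower, with 1 and 2 called without differentiated replicates 1 and 2, and 5, 4 and 6 without proliferating replicates 1, 2 and 3. In a fit of the WT channels alone 8 were called.

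The cyclins, kinases and inhibitors of G1 did not move as 1 group: 7 of 29 (24.1%) were called lower, none higher, and the median log2 change was -0.24. Over all genes tested 5.93% were called lower and 9.38% higher. The mitogen-driven cyclins were among the lower ones. Ccnd1 (cyclin D1) read 12.12, 12.41, 14.27 and 9.82 in the proliferating and 8.63 and 9.12 in the differentiated channels, so that the groups did not overlap but the proliferating channels spread widely. Its log2 change was -3.28 ± 0.87 (adjusted p = 0.0329). Ccnd2 (cyclin D2) read 15.09, 14.42, 14.79 and 11.84 in proliferating and 11.13 and 11.34 in differentiated channels, and its change was -2.8 ± 0.78 (adjusted p = 0.0403). Cdk4, their kinase partner, fell by 0.8 on the log2 scale, and Rbl1 (p107), an E2F-bound repressor of the retinoblastoma family, by 1.59.

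Several inhibitors of cyclin-dependent kinases, which slow entry into S phase, were lower too. Cdkn2c (p18) changed by -1.32 ± 0.19 (adjusted p = 0.00285), Cdkn2a, the locus of p16 and p19Arf, by -2.12 ± 0.48 (adjusted p = 0.0186) and Cdkn1a (p21) by -1.43 ± 0.38 (adjusted p = 0.0323). Cdkn2a read 8.77, 8.92, 10.03 and 10.51 in the proliferating and 7.46 and 7.42 in the differentiated channels, and the pair with Xist signal was the higher part of its group. Without 1 array at a time, 9 genes of the G1 list were called without proliferating replicate 4, 3 without proliferating replicate 2 and 1 without each of the others.

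Of 29 feedback genes and targets of ERK signalling, 3 were called lower and 1 higher, with a median log2 change of -0.42. These are 10.3% lower and 3.45% higher, against 5.93% and 9.38% of all genes tested. Dusp6, the phosphatase that limits ERK activity, read 14.38, 13.39, 14.52 and 11.8 in the proliferating and 9.63 and 11.95 in the differentiated channels. The groups overlapped, since differentiated replicate 2 lay above proliferating replicate 4, and the change was -2.73 ± 0.75 (adjusted p = 0.0377). Etv5, an ETS factor induced by FGF signalling, went from 9.56, 9.8, 10.37 and 7.92 to 6.15 and 7.71 (change -2.49 ± 0.55, adjusted p = 0.0178). Spry1, a Sprouty inhibitor of receptor tyrosine kinase signalling, read 12.04, 11.66, 12.26 and 8.48 in proliferating and 8.53 and 9.0 in differentiated channels. Proliferating replicate 4 was at the level of the differentiated channels there, and the change of -2.34 ± 0.97 was not called (adjusted p = 0.129). Shisa2, which holds back the maturation of FGF and Wnt receptors, was higher by 1.74 ± 0.49 (adjusted p = 0.0402). The ERK list had 8 calls lower and 1 higher without proliferating replicate 4, and without any other single array none lower.

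Among ligands and receptors of the FGF and EGF families, 3 of 21 were called higher and 1 lower, with a median of 0.18. That is 14.3% higher and 4.76% lower, against 9.38% and 5.93% of all genes tested. Egfr, the receptor of EGF, read 13.37, 13.52, 13.79 and 13.33 in the proliferating and 12.38 and 13.24 in the differentiated channels at its brightest probe and was not called there (-0.69 ± 0.47, adjusted p = 0.336). Its other 4 probes above background gave -1.84, -1.61, -1.43 and -1.11, and with the mean of the probes Egfr was called lower (-1.33, adjusted p = 0.0427). Fgf12, an intracellular FGF-related protein that binds sodium channels, rose from 6.54, 6.49, 6.59 and 6.57 to 9.34 and 9.07, a change of 2.66 ± 0.39 (adjusted p = 0.00363), with a second probe at 0.66. Erbb4, a neuregulin receptor, rose by 1.05 (0.27 at a second probe), and Fgf2, the ligand that had been withdrawn from the medium, by 0.52. Fgfrl1, a receptor-like protein without a kinase domain, fell by 1.33 on the log2 scale. Without proliferating replicate 4, 4 were called higher and 2 lower, and without differentiated replicate 2, 2 higher and none lower. Without each of the other 4 arrays 1 was called higher and none lower.

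Genes of the stem and progenitor state split. Of 29 tested, 6 were called lower and 1 higher, and the median log2 change was 0.01, with -0.11 under median-centred channels. Calls lower made up 20.7% and calls higher 3.45%, against 5.93% and 9.38% of all genes tested. Nes, the intermediate filament protein nestin that the labels use to describe these cells, read 14.31, 14.46, 14.85 and 13.31 in the proliferating and 11.71 and 12.43 in the differentiated channels. It fell in every comparison of channels between groups, with a log2 change of -2.17 ± 0.36 (adjusted p = 0.00546). Sox2, the other marker in the labels, read 12.51, 12.54, 12.33 and 13.06 in proliferating and 12.91 and 12.65 in differentiated channels, and its change of 0.17 ± 0.23 was not called (adjusted p = 0.657); with median-centred channels its sign turned, to -0.3.

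Other regulators of the progenitor state went both ways. Sox3, a close relative of Sox2, changed by -1.38 ± 0.22 (adjusted p = 0.00456), and Hes1, a Notch effector that represses neuronal genes, by -1.41 ± 0.4 (adjusted p = 0.044). Rfx4, Lfng, a glycosyltransferase that modifies Notch, and Emx2 fell by 1.34, 1.34 and 1.52, although the second Emx2 probe gave 0.04 and its call was lost with the mean of the probes. Nr2e1 (Tlx), a nuclear receptor that maintains adult neural stem cells, was higher by 0.72 ± 0.15 (adjusted p = 0.0128). Hes5, another Notch effector, read 15.21, 15.15, 14.79 and 15.45 in proliferating and 15.64 and 15.75 in differentiated channels, with 1 proliferating channel saturated. Its change of 0.55 ± 1.05 was not called (adjusted p = 0.762), although the groups did not overlap. The standard deviations of its WT channels were 0.27 (proliferating) and 0.07 (differentiated), while the SE rests on a spread shared with the KO channels. The stem list had 7 calls lower and 3 higher without proliferating replicate 4. Without differentiated replicate 1 it had none, without differentiated replicate 2, 2 lower and 1 higher, and without proliferating replicates 1, 2 and 3, 2, 3 and 3 lower.

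Neuronal genes rose in part, and Dcx rose furthest. Dcx, the microtubule protein doublecortin of migrating young neurons, read 7.28, 8.35, 6.56 and 7.02 in the proliferating and 12.58 and 12.41 in the differentiated channels. No differentiated channel came near the proliferating ones, and the log2 change was 5.19 ± 0.66 (adjusted p = 0.00193), a 36.5-fold rise and the largest of all genes tested. The probe lies at chrX:138520631-138520690 of build mm7. A second probe, well above background in 2 of the 6 WT channels, gave 1.07, and the other was dark in all 6. Without differentiated replicate 1 the adjusted p of Dcx was 0.0702, and without each other array it ran from 0.000567 to 0.0327.

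Of 29 neuronal cytoskeleton, growth cone and migration genes, 11 were called higher and none lower, with a median log2 change of 0.72 and 9.38% of all genes called higher. Tubb3 (neuronal tubulin) read 9.73, 9.88, 8.9 and 10.68 in the proliferating and 11.93 and 11.87 in the differentiated channels, with a change of 2.11 ± 0.4 (adjusted p = 0.00941). Rbfox3 (NeuN), a splicing factor of maturing neurons, went from 7.11, 7.22, 6.91 and 6.83 to 8.55 and 8.52 (change 1.52 ± 0.19, adjusted p = 0.00193), with a second probe at 0.65. The RNA-binding proteins Celf4 and Elavl3 rose by 2.66 and 1.95, the filament protein Ina by 1.43 and Crmp1, a growth cone protein, by 0.97 on the log2 scale. Cntn2, an axonal adhesion molecule, and Stmn2, which acts on growth cone microtubules, were not well above background in any proliferating channel. Cntn2 was at least 2.09-fold higher (group means 7.18 against 6.11, adjusted p = 0.00274) and Stmn2 at least 1.58-fold (6.82 against 6.16, adjusted p = 0.018). Such a bound compares the mean of the brighter group with a raised mean of the dim group. In that mean each channel counts as no lower than the dimmest probe there that was well above background. A gene dark in all proliferating channels was tested only if it was well above background in both differentiated ones. Likewise, a gene dark in both differentiated channels was tested only if at least 2 proliferating ones were well above background. In the counts and medians of a list this filter favours rises among the former genes and falls among the latter. Map2, a dendritic microtubule protein, read 12.79, 12.74, 12.7 and 12.76 in proliferating and 13.02 and 13.59 in differentiated channels and was not called (0.56 ± 0.17, adjusted p = 0.0572). The list had 11 calls without proliferating replicate 4, 3, 5 and 5 without proliferating replicates 1, 2 and 3, and 1 and 6 without differentiated replicates 1 and 2.

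Synaptic vesicle and release genes followed, with 8 of 27 called higher, 1 lower and a median log2 change of 0.67. That is 29.6% higher and 3.7% lower, against 9.38% and 5.93% of all genes tested. Syt1, the calcium sensor of vesicle fusion, read 6.94, 7.17, 6.09 and 6.28 in the proliferating and 9.9 and 9.29 in the differentiated channels. The change was 2.98 ± 0.32 (adjusted p = 0.000911), and its other probes above background gave 2.33 and 0.84. Snap25, a SNARE protein, rose from 7.54, 7.41, 7.09 and 7.62 to 9.27 and 8.6 (change 1.52 ± 0.31, adjusted p = 0.0126), and Rab3a, a vesicle GTPase, by 1.45. Rims1, an active zone scaffold, was dark in all proliferating channels and at least 1.65-fold higher (7.14 against 6.41, adjusted p = 0.0125). Unc13a, which primes vesicles, went the other way: it read 9.51, 9.32, 9.25 and 8.7 in proliferating and 7.14 and 7.95 in differentiated channels at its brighter probe, a change of -1.65 ± 0.24 (adjusted p = 0.00334), while the other probe gave 0.44 and with the mean of the probes it was not called. There were 12 calls higher without proliferating replicate 4, and without proliferating replicates 1, 2 and 3, 3, 2 and 4. Without differentiated replicates 1 and 2 they were 1 and 4.

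Genes of transmitter use and excitability were fewer. Of 20 GABA and glutamate genes, 3 (15%) were called higher, against 9.38% of all genes tested, and none lower, with a median of 0.66. Slc32a1, the vesicular transporter of GABA, read 7.28, 6.63, 6.93 and 6.6 in the proliferating and 7.78 and 9.73 in the differentiated channels. The differentiated channels were both higher but lay almost 2 log2 units apart, and the change was 1.89 ± 0.46 (adjusted p = 0.0252). Grin2b, an NMDA receptor subunit, rose by 0.86. Voltage-gated channel genes showed 3 calls higher and 2 lower among 26, with a median of 0.09 that turned to -0.13 with median-centred channels. Their shares, 11.5% higher and 7.69% lower, lie near the 9.38% and 5.93% of all genes tested. The sodium channel subunit gene Scn3b rose by 0.9, with a second probe at -0.28 and no call with the mean of the probes, and Cacnb4, a calcium channel subunit gene that was dark before withdrawal, was at least 2.12-fold higher (7.64 against 6.55, adjusted p = 0.0292). Cacng5, of the calcium channel gamma and AMPA receptor regulatory family, fell from 11.01, 10.77, 11.78 and 12.5 to 7.29 and 8.23 (change -3.76 ± 0.85, adjusted p = 0.0187), and the potassium channel gene Kcnc1 fell by 2.09. Leaving out 1 array at a time gave 0 to 5 calls higher among the GABA and glutamate genes and 0 to 4 higher among the channel genes, the most without proliferating replicate 4 and the least without proliferating replicate 2 in both lists, with 0 channel genes also without proliferating replicates 1 and 3 and differentiated replicate 1.

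Of 18 neurogenic transcription factors tested, 3 (16.7%) were called higher, against 9.38% of all genes tested, and none lower, with a median log2 change of 0.40. Of the 28 on the array, 10 were not tested. Dlx5 and Myt1l were tested only because both differentiated channels were well above background. Dlx5, a homeobox factor of GABAergic neuron precursors, was dark in all proliferating channels and at least 2.18-fold higher (7.41 against 6.29, adjusted p = 0.00759). Myt1l, which represses the genes of other fates in neurons, was likewise at least 2.95-fold higher (7.76 against 6.19, adjusted p = 0.00388). Neurod2, a basic helix-loop-helix factor of neuronal differentiation, rose by 0.99 ± 0.15 on the log2 scale (adjusted p = 0.00406). The count was 1 without differentiated replicate 1, 2 without differentiated replicate 2 or proliferating replicate 1, and 3 without each other array.

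Axon guidance genes had 7 calls higher and 2 lower among 37, with a median of 0.36 that turned to -0.01 with median-centred channels. Calls higher made up 18.9% and calls lower 5.41%, against 9.38% and 5.93% of all genes tested. Efnb3, an ephrin ligand, read 8.1, 8.05, 7.93 and 7.93 in the proliferating and 10.01 and 9.55 in the differentiated channels (change 1.77 ± 0.22, adjusted p = 0.00189). Sema4a and the semaphorin receptor Plxna4 rose by 2.15 and 1.51, with a second Plxna4 probe at 0.66. Unc5c, a netrin receptor, and Epha3, an ephrin receptor, were dark in all proliferating channels and at least 3.53-fold (8.13 against 6.31, adjusted p = 0.00231) and at least 1.87-fold (7.4 against 6.49, adjusted p = 0.0132) higher. Sema3a, a secreted repellent, was dark in both differentiated channels and at least 2.86-fold lower (6.47 against 7.99, adjusted p = 0.0128). It passed the filter only through its proliferating channels. Without 1 array at a time 2 to 8 were called higher and 0 to 3 lower, the fewest without differentiated replicate 1 and the most without proliferating replicate 4.

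**Figure D3:**
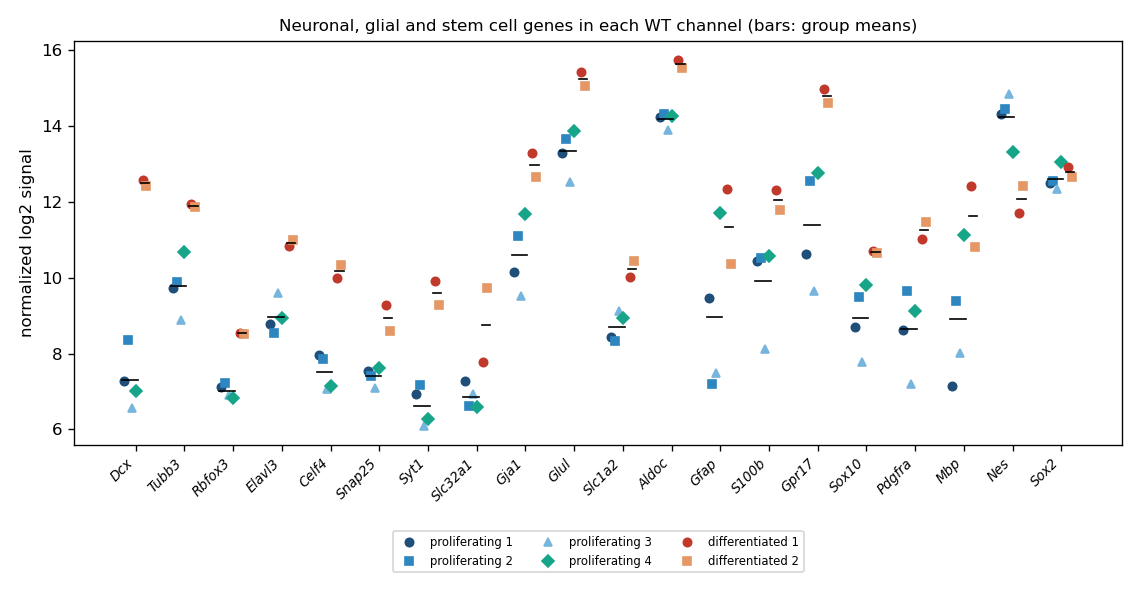
Normalized log2 signal (vertical axis) of 20 neuronal, glial and stem cell genes in each of the 6 WT channels, with bars at the group means. Dcx runs from 6.56 to 8.35 in the proliferating and from 12.41 to 12.58 in the differentiated channels, while the groups overlap for Gfap, Mbp and Sox2.

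Astroglial genes rose in part. Of 34 tested, 7 were called higher and 2 lower, and the median log2 change was 1.00. Calls higher made up 20.6% and calls lower 5.88%, against 9.38% and 5.93% of all genes tested. Gja1 (connexin 43), the main gap junction protein of astrocytes, read 10.16, 11.1, 9.51 and 11.67 in the proliferating and 13.29 and 12.66 in the differentiated channels. The groups did not overlap, and the change was 2.36 ± 0.4 (adjusted p = 0.00596). Gjb6 (connexin 30) rose by 2.18 ± 0.38 (adjusted p = 0.00695), Glul, the enzyme that makes glutamine from glutamate, by 1.9 ± 0.42 (adjusted p = 0.0177), and Aldoc, the brain aldolase, by 1.47 ± 0.22 (adjusted p = 0.00363). Clu (clusterin), a secreted chaperone, rose by 2.84. Slc1a2, a glutamate transporter, rose by 1.52 ± 0.34 (adjusted p = 0.0185) at its brightest probe, but a second probe gave -0.61 and with the mean of the probes it was not called.

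The best-known astrocyte marker was not among the calls. Gfap, the glial filament protein, read 9.45, 7.19, 7.48 and 11.7 in the proliferating and 12.34 and 10.36 in the differentiated channels. Proliferating replicate 4 lay above differentiated replicate 2, and the change of 2.39 ± 1.31 was not called (adjusted p = 0.239). Sparcl1, a matrix protein secreted by astrocytes, had one of the larger differences in means, 4.17 ± 1.64, from 12.84, 13.47, 8.43 and 10.25 to 15.62 and 15.22, with 1 differentiated channel saturated, and was not called either (adjusted p = 0.113). The same held for S100b (2.13 ± 0.89, adjusted p = 0.131), Ndrg2 (2.6 ± 0.89, adjusted p = 0.0754) and Aqp4, the astrocyte water channel (1.01 ± 0.52, adjusted p = 0.211).

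The 2 called falls in this list were Id3 and Vim. Id3, a target of BMP signalling that blocks basic helix-loop-helix factors, read 12.53, 11.9, 12.4 and 12.09 in proliferating and 9.99 and 9.1 in differentiated channels (change -2.68 ± 0.32, adjusted p = 0.0016). Vim (vimentin), the filament protein of progenitors and reactive astrocytes, fell by 1.17 on the log2 scale, with 1 proliferating channel saturated. Proliferating replicate 4 was the highest of its group for 23 of the 34 astroglial genes, and its part in the result was not tested. Without it 14 were called higher and 2 lower. Without proliferating replicates 1, 2 and 3 the calls higher were 2, 3 and 6, and without differentiated replicates 1 and 2 they were 1 and 3.

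Genes of oligodendrocyte precursors and of myelin rose in part. Calls higher made up 25% of each list, against 9.38% of all genes tested. Of 16 precursor genes 4 were called higher and 1 lower, with a median log2 change of 0.77, and of 20 myelin and mature oligodendrocyte genes 5 were called higher and none lower, with a median of 1.29. Gpr17, a receptor of committed precursors, read 10.63, 12.54, 9.66 and 12.76 in the proliferating and 14.99 and 14.61 in the differentiated channels, a change of 3.4 ± 0.83 (adjusted p = 0.0255). The proliferating channels spread by more than 3 log2 units without reaching the differentiated ones. Sox10, the factor that defines the lineage, rose by 1.73 ± 0.52 (adjusted p = 0.0494), and Olig2, which also acts in dividing progenitors, fell by 0.85 (adjusted p = 0.0288). Lhfpl3 and Matn4 rose by 2.15 and 1.73.

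Enzymes of myelin lipids stood among the calls and myelin basic protein did not. Fa2h, which makes hydroxylated fatty acids, and Enpp6, a choline phosphodiesterase of newly formed oligodendrocytes, were dark in all proliferating channels. They were at least 2.86-fold (7.77 against 6.25, adjusted p = 0.0207) and at least 2.1-fold higher (7.15 against 6.07, adjusted p = 0.015). Gal3st1, the sulfotransferase that makes sulfatide, rose by 1.87 and Sirt2 by 1.48. The myelin protein Mobp, dark in the proliferating channels, was at least 2.37-fold higher (7.58 against 6.34, adjusted p = 0.0217). Fa2h, Enpp6 and Mobp were tested only because both differentiated channels were well above background. Mbp (myelin basic protein) read 7.15, 9.38, 8.01 and 11.13 in proliferating and 12.43 and 10.81 in differentiated channels; the groups overlapped and the change of 2.7 ± 1.44 was not called (adjusted p = 0.226). Pdgfra, the receptor of precursors, at 2.6 ± 0.89 (adjusted p = 0.0755), was not called although the groups did not overlap. Without proliferating replicate 4, 5 precursor and 9 myelin genes were called higher. Without differentiated replicate 1 none were in either list, without differentiated replicate 2, 0 and 4, and without proliferating replicates 1, 2 and 3, 1 and 0, 0 and 1, and 0 and 0.

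**Figure D4:**
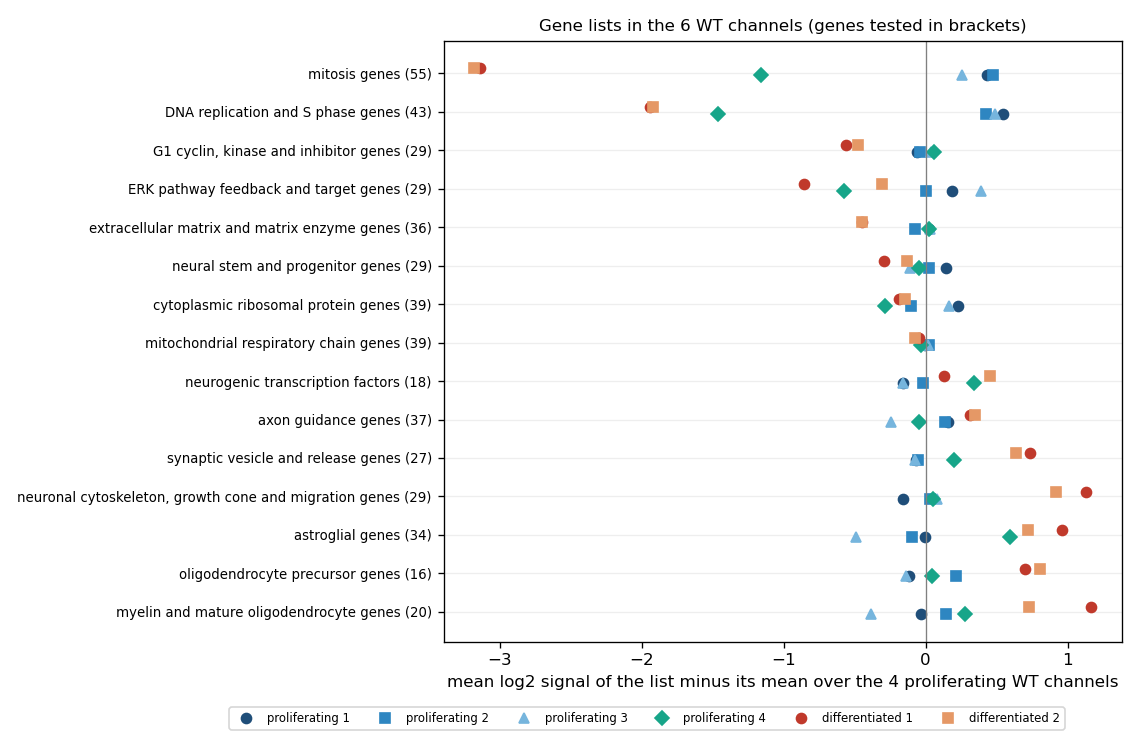
Mean normalized log2 signal of 15 gene lists in each of the 6 WT channels, minus the list's mean over the 4 proliferating channels (horizontal axis, log2 units); the number of genes tested is in brackets. The mitosis and replication lists lie lowest in the differentiated channels, and proliferating replicate 4 lies below the rest of its group in both.

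Matrix genes were mixed, with 3 of 36 called higher and 7 lower (median -0.25). That is 8.33% higher and 19.4% lower, against 9.38% and 5.93% of all genes tested. Col18a1, a collagen of basement membranes, read 11.29, 10.67, 10.91 and 10.22 in the proliferating and 7.02 and 7.21 in the differentiated channels, a change of -3.66 ± 0.61 (adjusted p = 0.00587). The laminin chains Lama5, Lamb1 and Lamc1 fell by 1.68, 1.95 and 1.23 on the log2 scale, and Col5a1 by 1.95 with a second probe at 0.49, while Col9a1 rose by 1.92. With 1 array left out, 1 to 9 were called lower and 0 to 4 higher, the least without differentiated replicate 1 and the most without proliferating replicate 4.

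Igfbp2 and Igfbp3, binding proteins of insulin-like growth factors, fell steeply. They belong to a list of IGF, lysosome and FoxO target genes with 3 calls higher and 2 lower among 32 (median 0.21, and -0.21 with median-centred channels). The list's shares, 9.38% higher and 6.25% lower, lie near the 9.38% and 5.93% of all genes tested. Igfbp2 and Igfbp3 were its only calls lower, so Igfbp4 and Igfbp5, also listed, were not called lower. Igfbp2 read 15.3, 15.45, 15.55 and 14.49 in the proliferating and 10.68 and 12.42 in the differentiated channels, with 1 proliferating channel saturated. Its change was -3.65 ± 0.38 (adjusted p = 0.000797), and it was called under every alternative run. Igfbp3 changed by -3.37 ± 0.81 (adjusted p = 0.024). Foxo1, the factor that insulin signalling keeps out of the nucleus, rose by 1.22 ± 0.19 (adjusted p = 0.00411), and the lysosomal membrane protein Lamp1 and the protease Ctsl rose by 1.05 and 1.38. Without proliferating replicate 4 the list had 8 calls higher and 3 lower, without either differentiated replicate 0 and 1, and without proliferating replicates 1, 2 and 3, 2 higher with 1, 1 and 2 lower.

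Signalling pathways of fate choice had calls in both directions. Calls higher made up 7.14% of the Wnt, 8% of the Notch and 4.55% of the BMP list, against 9.38% of all genes tested. Calls lower made up 10.7%, 8% and 4.55%, against 5.93%. Of 28 Wnt genes 2 were called higher and 3 lower (median -0.34): Sfrp1, a secreted Wnt antagonist, rose by 2.48 ± 0.38 (adjusted p = 0.00403) with a second probe at 0.49, Tcf7l2 by 1.16, and the receptors Fzd10 and Fzd9 and the ligand Wnt5a changed by -3.53, -1.56 and -0.82. The other 3 Tcf7l2 probes gave 0.54, 0.23 and 0.12, and its call was lost under 15 of 21 alternatives, among them the mean of the probes and the omission of any 1 WT replicate. Notch genes had 2 higher and 2 lower of 25 (median -0.11), the lower ones being Hes1 and Lfng. Dtx1, a Notch-binding ubiquitin ligase, and Dner, a neuronal Notch ligand, rose by 1.51 and 1.39. BMP, TGF-beta and Id genes had 1 higher and 1 lower of 22 (median 0.09, and -0.3 with median-centred channels). The BMP antagonist Nog was dark in all proliferating channels and at least 1.53-fold higher (6.96 against 6.34, adjusted p = 0.0291), while Id4, another Id protein, had a mean higher by 2.7 ± 1.1 that was not called (adjusted p = 0.123). Leaving out 1 array at a time gave 0 or 1 Wnt gene, 0 to 2 Notch genes and 0 or 1 BMP gene called higher, and 0 to 4, 0 to 2 and 1 or 2 called lower. Without differentiated replicate 1 none of the 3 lists had a call higher, and Id3 was called without each array.

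Housekeeping groups moved little in calls. Cytoplasmic ribosomal protein genes had 1 call lower of 39 (Rpl4, -1.38; median -0.12), mitochondrial respiratory chain genes 1 lower of 39 (median -0.04), and genes of ribosome biogenesis and nucleotide synthesis 1 lower of 34 (Hprt, -1.46; median -0.16). None in these lists was called higher, against 9.38% of all genes tested. The calls lower were 2.56%, 2.56% and 2.94% of the lists, against 5.93% of all genes. In the last list proliferating replicate 4 was the lowest of its group for 33 of the 34 genes, and 12 genes were called lower without it. Without it the ribosomal protein list had 2 calls lower and the respiratory list 2 higher and 2 lower. Without any other single array these 3 lists had no call, except 1 ribosomal protein gene lower without proliferating replicate 1.

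Metabolic and stress lists gave small counts in both directions. Calls higher made up 5.88% to 11.1% of each list and calls lower 3.85% to 11.1%, against 9.38% and 5.93% of all genes tested. Cholesterol and fatty acid synthesis genes had 2 higher and 2 lower of 34 (median -0.01), with Ebp, a sterol isomerase, at -1.9 ± 0.26 (adjusted p = 0.00274), Acly at -0.93, and Fads2 and Acat2 at 0.87 and 0.9. Glycolytic and hypoxia response genes had 3 higher and 3 lower of 27 (median -0.43): Adm (adrenomedullin), the glucose transporter Slc2a3 and the glycolytic enzyme Pgk1 changed by -3.0, -1.45 and -0.69, with 1 proliferating channel of Pgk1 saturated, and Aldoc, Pfkm and the carbonic anhydrase Car9 by 1.47, 0.65 and 0.87. Amino acid stress genes had 2 higher (Ddit3, 1.19, and Herpud1, 1.04) and 1 lower (Psat1, -0.95) of 26, with a median of 0.54. Interferon response genes had 2 higher and 2 lower of 21 (median -0.29). Without proliferating replicate 4 the glycolytic list had 4 calls higher and 9 lower, the sterol list 2 and 5, the stress list 4 and 2, and the interferon list 3 and 1. Without any other single array each of these lists had at most 2 calls.

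Several of the largest changes lay outside these lists. The deepest fall was that of Car3, a cytosolic carbonic anhydrase, which read 11.42, 12.12, 12.19 and 11.22 in the proliferating and 6.37 and 6.36 in the differentiated channels, where it was not well above background. It was at least 41.4-fold lower (group means 6.37 against 11.74, adjusted p = 0.000504) at chr3:14893376-14893435 of build mm7, and a second probe gave -1.56. Lgals1 (galectin-1), a secreted lectin made by neural stem cells, fell from 15.48, 15.16, 15.4 and 14.96 to 10.42 and 10.67, a change of -4.71 ± 0.35 (adjusted p = 0.000504). Angpt2, a ligand of the vascular receptor Tie2, read 9.99, 10.1, 12.48 and 10.22 and was dark after withdrawal, at 5.73 and 6.09. Like Car3, Angpt2 passed the filter only through its proliferating channels. It was at least 25.9-fold lower (5.91 against 10.7, adjusted p = 0.00399), with proliferating replicate 3 highest. Its adjusted p was 0.0928 without differentiated replicate 1.

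On the rising side, Cntnap2, an axonal adhesion molecule of the neurexin family, read 6.66, 6.99, 6.19 and 6.31 in the proliferating and 11.99 and 10.52 in the differentiated channels, a change of 4.72 ± 0.42 (adjusted p = 0.000504), with a second probe at 1.92. Eva1a and the claudin gene Cldn10 rose by 4.28 ± 0.38 and 4.28 ± 0.4. Pdgfrb, the PDGF receptor that marks mural cells, went from 6.26, 6.55, 6.87 and 6.73 to 10.91 and 10.54 (change 4.12 ± 0.35, adjusted p = 0.000504). Of the other mural markers, Rgs5 and Abcc9 were dark in all 6 channels, and Kcnj8 was well above background in differentiated replicate 1 alone (7.38, against 6.07 in replicate 2 and 5.89 to 6.14 in the proliferating channels). Acta2 and Cspg4 were well above background in all 6 channels, with log2 changes of -0.53 (adjusted p = 0.313) and -0.98 (adjusted p = 0.263) that were not called, although both differentiated channels lay below all proliferating ones. Chst1, a sulfotransferase that acts on keratan sulfate, was dark in every proliferating channel (6.28, 6.37, 6.24 and 6.24) and read 10.25 and 10.07 in the differentiated ones. It was at least 14.7-fold higher (10.16 against 6.28, adjusted p = 7.96e-05).

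The other genes in the 15 largest rises were Phactr3, Padi2, Sh3gl3, Naaa, Adra2a, 6330403K07Rik, Entpd2, Abhd3 and Pcp4, with log2 changes from 3.8 (Pcp4, a calmodulin-binding protein) to 4.27 (Phactr3, an actin and phosphatase regulator). A second Phactr3 probe gave 1.44, and the other Adra2a probes gave 3.67 and 1.06. Some of the genes just named varied widely before withdrawal. Naaa, a lysosomal amidase, read 9.17, 9.35, 8.1 and 11.81 in the proliferating and 14.13 and 13.15 in the differentiated channels, and Entpd2, an enzyme that breaks down extracellular ATP, read 6.83, 7.27, 6.07 and 9.59 in proliferating and 11.17 and 11.4 in differentiated channels. In both, proliferating replicate 4 was the highest of its group by over 2 log2 units. Among all named genes called, 35 of 177 were called under every alternative run, among them Mki67, Ccna2, Ccnb1, Cdc20, Car3, Lgals1, Igfbp2 and Id3 on the falling side and Cntnap2, Chst1, Pdgfrb, Syt1, Rbfox3 and Efnb3 on the rising side.

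The WT change was then set against that of the KO channels on the same arrays, by a test of the difference of both changes in 1 fit. It differed for 368 genes (2.11% of genes tested) by that fit, of which 181 were also called in WT cells, 151 as higher and 30 as lower. Over all 368 the WT change minus the KO change was above 0 for 190 and below 0 for 178. A fit of the 6 log ratios alone, which uses no comparison between arrays' channels, called 8 genes, 7 of them shared. These were Aqp4, Gpr149, Rgs16, Cdk6, Cidea, Bbox1 and 9130430L19Rik. Only 9130430L19Rik, Gpr149, Rgs16 and Bbox1 of these were called in WT cells. The number of differences thus rests on the choice of fit.

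Several neuronal genes changed more in WT than in KO cells. The log2 change of Syt1 was 2.98 in WT and 0.61 in KO cells (difference 2.37, adjusted p = 0.00158), and that of Dcx 5.19 and 2.3 (difference 2.89, adjusted p = 0.0151). Bcl11b, a zinc finger factor of striatal and cortical neurons, had 1.55 and -0.44 (difference 1.99, adjusted p = 0.000464). Gpr149, an orphan receptor, read 6.1, 6.51, 6.89 and 6.42 in the proliferating and 9.41 and 8.84 in the differentiated WT channels and changed by 2.64 in WT and 0.19 in KO cells (difference 2.45, adjusted p = 0.000339), with a second probe at 0.57 in WT cells. Rgs16, which speeds GTP hydrolysis by G protein alpha subunits, fell by 1.88 in WT cells and had a change of 0.36 in KO cells (difference -2.23, adjusted p = 0.00254).

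Bbox1 and Aqp4 changed more in KO cells. Bbox1, an enzyme of carnitine synthesis that was dark in all proliferating WT channels, was at least 1.95-fold higher in differentiated WT cells (7.24 against 6.27, adjusted p = 0.00831), and its fitted change was 0.97 in WT and 2.75 in KO cells (difference -1.78, adjusted p = 0.000339), and Aqp4 had 1.01 and 3.47 (difference -2.46, adjusted p = 0.0109). Mitosis genes were among those that fell further in WT cells. Mki67 fell by 5.02 in WT cells, against a KO change of -3.15 (difference -1.87, adjusted p = 0.0173), and Cdc20 by 4.24, against -2.28 (difference -1.96, adjusted p = 0.0134). Without differentiated replicate 1, 13 genes differed, without differentiated replicate 2, 99, and without proliferating replicate 1, 724. Dnmt3a read 8.75, 8.64, 8.6 and 8.53 in the proliferating and 9.3 and 8.97 in the differentiated WT channels at the brightest of 3 probes and was not called (0.51 ± 0.2, adjusted p = 0.107), while the other probes gave -0.14 and -0.16.

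**Figure D5:**
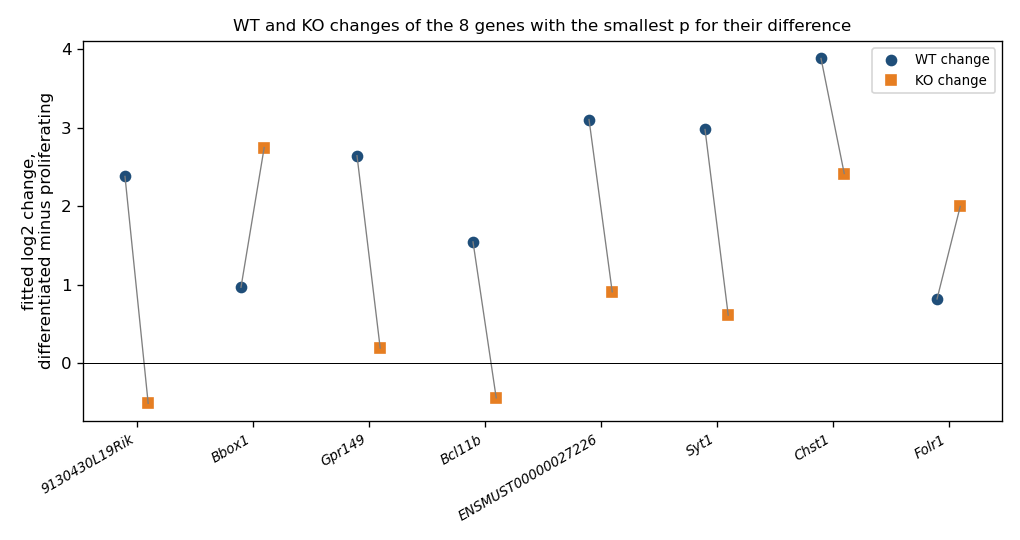
Fitted log2 change (differentiated minus proliferating, vertical axis) in WT cells (circles) and KO cells (squares) for the 8 genes with the smallest p for the difference among genes called in WT cells. The WT change is larger for all of them except Bbox1 and Folr1.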

How the data were processed

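Members, gene lists and tests were chosen with earlier results of these data known. Spot intensity values (mean signal and local background of each dye) were deposited by the authors as output of Agilent Feature Extraction 9.5.1.1 (design 014868), per the file headers.

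In R 4.3.3 with limma 3.58.1, statmod 1.5.0 and data.table version 1.17.8, signals were corrected with normexp (offset 50), then normalized by loess within arrays (control and outlier spots at weight 0) and Aquantile between them. Per array 1639 control spots, and in all 859 outlier-marked gene spots, were left out, and saturated spots were kept. Of 41174 probes, 22951 took the symbol of a RefSeq transcript and 18223 the name in the file. The probe with the brightest mean stood for each of 28786 genes, 8526 of which have several, if it was well above background in the WT channel of at least 2 of the 6 arrays (17429 genes, after 12 with missing values). limma's separate-channel fit (intraspot correlation 0.766, dye as covariate, 7 residual and 2.88 prior degrees of freedom) took all 12 channels, with 2-sided Benjamini-Hochberg adjusted p-values.

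Named were the 15 largest called rises and falls, up to 6 called genes of smallest p per list, markers, and 8 genes for the difference from KO cells; others were added after their values were seen, and a few are not reported here. Lists are described by counts and medians. The fit was tested on simulated data. Alternatives changed the background correction, the scaling, the filter, the channels, the dye term, the probe rule, the replicate block and the arrays used.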

Additional observations from a re-analysis of the deposited data

Results flagged for a closer look

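In 4 samples of a group, a channel was noted when its gap to the nearest of the others exceeded Dixon's 95% critical value for the group's range. Of the 200 named genes examined, 18 had such a channel among the proliferating WT samples. Chance alone gives about 1 in 20 for independent genes not chosen by their values. The named genes were chosen by their values and many move together, so the count is no measure against chance. Proliferating replicate 4 was the far channel for 15 of them. It was low for Pbk (11.17), NAP102625-1 (10.21), Uhrf1 (10.21), Spry1 (8.47), Cdt1 (8.52), Rab3b (10.05), Sgo1 (10.07), Pclaf (11.16), Mcm5 (9.35), Tk1 (8.18), Cdk1 (9.53) and Top2a (8.5), and high for Fxyd1 (7.11), Lgi4 (9.94) and Cdk6 (8.97), the values in brackets being its normalized log2 signals. Most of the genes with a low value there belong to the cell cycle, as do many of the genes named. The other far channels were those of Angpt2 (replicate 3, 12.48) and Pgk1 (replicate 2, 15.35), which were high, and S100b (replicate 3, 8.11), which was low.

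The WT change differed from the KO change, by the test of the difference itself, for 42 of the named genes. The WT change minus the KO change, on the log2 scale, was above 0 for 24: Dcx (2.89), Chst1 (1.47), Myt1l (1.61), Neurod2 (0.52), Rbfox3 (0.88), Cntn2 (0.94), Tubb3 (1.28), Ina (1.02), Crmp1 (0.93), Syt1 (2.37), Snap25 (1.19), Slc32a1 (1.58), Lhfpl3 (1.65), Fgf12 (1.4), Epha3 (0.64), Sfrp1 (1.44), Map2 (0.56), Runx1t1 (1.99), Cdk6 (1.72), Celf4 (2.17), 9130430L19Rik (2.89), Gpr149 (2.45), Bcl11b (1.99) and ENSMUST00000027226 (2.19). It was below 0 for 18: Mki67 (-1.87), Pbk (-1.12), Cdca3 (-1.79), Cdca8 (-1.5), Cenpe (-1.49), Cdc20 (-1.96), Id3 (-2.04), Gjb6 (-1.19), Vim (-1.03), Enpp6 (-0.93), Mobp (-0.96), Tpx2 (-1.16), Fzd9 (-1.89), Lamp1 (-0.55), Folr1 (-1.18), Rgs16 (-2.23), Aqp4 (-2.46) and Bbox1 (-1.78). With the log ratios of the arrays alone, 6 of these genes were called (Aqp4, Gpr149, Rgs16, Cdk6, Bbox1 and 9130430L19Rik), and with the replicate block none.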

How the results depend on the processing

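The planned block on slide or scan could not be fitted, since each condition lies on its own slide. Against 2669 calls (1635 higher, 1034 lower), other settings moved these counts by over 1.5 times. Median-centred channels gave 878 higher and 2639 lower. Array weights in a fit of the WT channels alone gave 1638 lower, against 696 in that fit without weights. The WT channels alone gave 4150 calls (1783 lower) without proliferating replicate 4, and 1755 lower without proliferating replicates 3 and 4. All 12 channels without those 2 arrays gave 1007 (491 higher, 516 lower), and a minimum of 2-fold gave 1391 (778 and 613). Leaving out 1 array at a time gave 202 to 3801 calls, 130 to 2204 higher and 72 to 1597 lower.

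Against 368 differences between the WT and KO changes, quantile scaling gave 591, a filter on all WT channels 195, no dye term 100, no proliferating replicates 3 and 4 gave 1791, log ratios alone 8, and a minimum of 2-fold 200. Leaving out 1 array gave 13 to 724.

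The replicate block gave 5810 calls (3346 higher, 2464 lower) and 0 differences between the WT and KO changes (768 at an unadjusted p under 0.05, by limma). Same-numbered samples correlated at -0.177 (replicate 1) and 0.099 (replicate 2) in their deviations from the group means. With 2 differentiated channels the crossed pairs mirror these values, at 0.177 and -0.099. Same-numbered samples also carry WT RNA in opposite dyes, so these correlations cannot decide whether the numbers pair samples. The main fit did not pair them. Sox2, not called, turned to -0.3 with median-centred channels. The cause of these shifts was not tested.

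The fit of log ratios alone and the fits of WT channels alone with arrays left out were chosen after seeing the data. Nearly all called genes had groups that did not overlap, so a kept direction says little when arrays are left out. All 177 called named genes kept their direction under every alternative. They lost 7 to 134 calls with 1 array left out. Of 75 named genes with several probes above background, 7 had probes of opposite sign.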

Other observations

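Beyond the 15 largest changes in each direction, the following genes were chosen after their values were seen, from the 40 largest rises and falls. Genes that are known from glia or from neurons were among the rises. Slc1a1, a neuronal glutamate and cysteine transporter, read 7.52, 8.35, 7.29 and 8.46 in the proliferating and 11.89 and 11.02 in the differentiated WT channels (log2 change 3.55 ± 0.46, adjusted p = 0.00223), and the kinesin heavy chain Kif5c read 8.64, 8.57, 8.17 and 8.23 in proliferating and 11.54 and 11.17 in differentiated channels (change 2.96 ± 0.56, adjusted p = 0.0097). Neither overlapped between groups, and second probes gave 2.84 for Slc1a1 and 0.94 for Kif5c. Runx1t1, a transcriptional corepressor, rose by 3.43 ± 0.31 (adjusted p = 0.000504), with a KO change of 1.44 (difference 1.99, adjusted p = 0.00254). Fxyd1, a regulator of the sodium pump, rose by 3.79 ± 0.35, Prdm16, a factor of radial glia, by 3.17 ± 0.63, Lgi4, a secreted glial protein, by 3.57 ± 0.87, and the urea transporter Slc14a1 by 3.03 ± 0.82. Second probes of Fxyd1, Lgi4 and Slc14a1 gave 2.81, 1.87 and 1.42. Chil1, a secreted chitinase-like protein of astrocytes and macrophages, was not well above background in any proliferating channel and was at least 8.36-fold higher (group means 9.57 against 6.51, adjusted p = 0.00261).

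Among the falls outside the lists, some were of genes tied to the cell cycle: Cdkn3 (-3.93), a phosphatase of cyclin-dependent kinases, Sgo1 (-3.76), the protector of centromeric cohesion, and Pclaf (-3.69), a partner of PCNA. The rest come from other families. Tmem176a, a transmembrane protein gene, read 11.4, 10.98, 11.38 and 11.46 in the proliferating and 7.47 and 7.58 in the differentiated channels, even across replicates, a change of -3.78 ± 0.38 (adjusted p = 0.000689). The vesicle GTPase Rab3b fell from 11.8, 11.52, 11.65 and 10.05 to 7.19 and 7.63 (change -3.85 ± 0.51, adjusted p = 0.00231), while its relative Rab3a rose by 1.45. A second Rab3b probe gave -1.75. The matrix genes Fbln2 and Fndc1 fell by 3.94 and 3.7, with unlike patterns before withdrawal. Fbln2 read 13.37, 13.63, 11.28 and 10.61 in proliferating replicates 1 to 4, higher in the pair without Xist signal, and Fndc1 read 8.92, 9.44, 11.36 and 12.96, higher in the pair with it. Otx2, a homeobox factor, read 6.31, 6.29, 7.91 and 8.57 in the proliferating and 5.97 and 6.13 in the differentiated channels and was not called (adjusted p = 0.306).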
